A study of Mus musculus with 4 samples.

Results

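Neuropeptide precursor genes were examined in 4 samples of mouse hippocampus, each read on 1 Affymetrix MG_U74Av2 array from total RNA. The set held 9 genes, Sst, Npy, Cck, Penk, Pdyn, Tac1, Tac2, Vip and Cort, a set given by gene name. All probe sets that the platform annotation assigned to exactly 1 of these genes were taken, which gave 12 of the 12422 probe sets besides controls. Penk had 3 probe sets, Pdyn had 2, and the other 7 genes had 1 each. The 4 samples formed a single group, murine hippocampus, and the labels used here give no strain, sex, age, treatment or batch. The series title calls them replicates. No label states whether they came from separate animals, so p-values measure only the spread between these samples, which may be technical. The samples are called 1 to 4, and these numbers are only names.

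Neuropeptides are short signalling peptides that are cut from larger precursor proteins, stored in dense-core vesicles and released to act mostly on G protein-coupled receptors. In the hippocampus, somatostatin, neuropeptide Y, cholecystokinin, vasoactive intestinal peptide and cortistatin are made by GABAergic interneurons, and Cck is also transcribed in principal cells. Dentate granule cells are known for dynorphin in their mossy fibres and also make enkephalin. A change in such an mRNA in whole tissue can come from fewer cells of a type or from less RNA per cell, and these cannot be told apart here.

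Signals are array intensities after quantile normalization, in normalized units. A value under 27.7 units, the 25th percentile of all values, is treated as having no order, and this level is called the floor. The 6210 probe sets whose mean signal was above the median of all probe sets (104 units) were analysed for spread, and 7 of the 12 neuropeptide probe sets were among them. These 7 belonged to 7 different genes, and the probe sets of Tac1 and Vip were not analysed because their mean was too low. The signal of a probe set also depends on its oligonucleotides, so levels of different genes are not set against each other. Each variance was set against the trend of variance on signal by a one-sided F test in limma, adjusted by the Benjamini-Hochberg method over all 6210.

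The spread over the samples differed from gene to gene. Cck and Sst spanned less than 1.3-fold over the 4 samples, Tac1 and Npy less than 1.5-fold, and Penk and Pdyn less than 2-fold, whereas Vip, Tac2 and Cort spanned at least 2-fold. Of the 7 analysed probe sets, those of Tac2 and Cort spanned at least 2-fold, which is 2 of 7 beside 15.2% of all analysed probe sets, and 4 of 7 spanned at least 1.5-fold, beside 44.2%. With so few probe sets this count is a description and does not set the group apart. An SD above the trend for probe sets of like signal was found for 6 of the 7, beside 45.7% of all analysed probe sets. No neuropeptide probe set passed the adjusted variance test, and 0% of all analysed probe sets did. With 4 arrays this test is hard to pass. Camk2a, with a 21.4-fold span and an SD 7.04 times the trend, had an adjusted p of 0.356 (limma). The lack of a pass therefore does not show a small spread. At an unadjusted p under 0.05 there was 1 neuropeptide probe set, that of Cort, beside 5.62% of all analysed probe sets. Without sample 2, 0 of 8 analysed neuropeptide probe sets spanned 2-fold, beside 11.8% of all analysed probe sets. With no signal filter, 5 of the 12 neuropeptide probe sets spanned at least 2-fold, beside 22.6% of all probe sets, and 1 had an unadjusted p under 0.05, beside 3.11%.

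**Figure D1:**
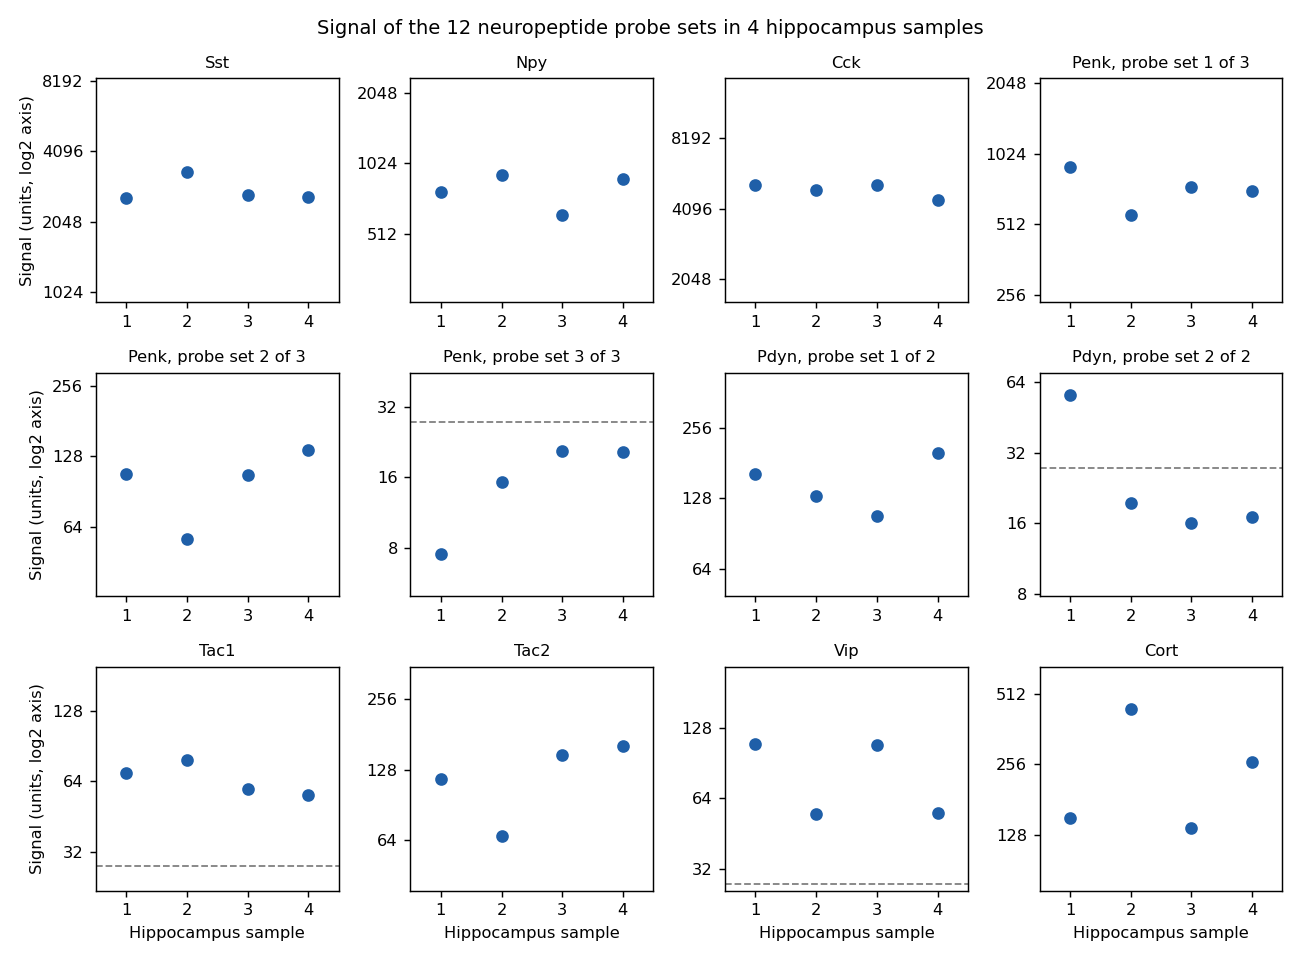
Signal of each of the 12 neuropeptide probe sets (normalized units, log2 axis, every panel covering the same 9-fold span) in hippocampus samples 1 to 4. Each point is 1 array and the dashed line is the floor of 27.7 units. Cck and Sst stay nearly level, Vip takes a high value in samples 1 and 3 and a low one in samples 2 and 4, and Cort is highest in sample 2.

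Somatostatin (Sst) inhibits hormone and transmitter release and marks dendrite-targeting interneurons. Its probe set gave, in the order of samples 1 to 4 that is kept throughout, 2599, 3339.6, 2676 and 2621 units (mean 2809 ± 355, SD, n = 4). Sample 2 stood above the other 3 samples, which lay close together, and was 1.27-fold above their mean. Over all samples the span was 1.28-fold, and the SD was 1.11 times the trend (limma, adjusted p = 0.994). Without sample 2 the range dropped to 0.042 on the log2 scale, against 0.36 with it.

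Cortistatin (Cort) is a peptide related to somatostatin that binds the same receptors and is made by a subset of cortical and hippocampal interneurons. Its probe set gave 151, 442, 136 and 262 units (mean 248 ± 141, SD, n = 4). Sample 2 was highest, sample 4 followed, and samples 1 and 3 were low and differed by less than the trend SD. The span of 3.24-fold was the widest among the leading probe sets of the 9 genes, and the SD was 2.85 times the trend. The variance test gave an unadjusted p of 0.0223 and an adjusted p of 0.755 (limma). Without sample 2 the unadjusted p was 0.166 and the log2 range 0.96, against 1.70 with it, and the range of Vip, which was not analysed, was then wider, at 1.01.

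Sst and Cort were both highest in sample 2, but by unequal amounts. Within an array, the ratio of Cort to Sst varied 2.59-fold over the 4 samples, with its highest value in sample 2 and its lowest in sample 3. Such a ratio shows that the signals varied unequally and not which of them was stable.

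The sequence before the start of both genes is shown because their peptides are related while their signals spread differently, and that of Vip because its signal lay at 2 levels. These are 250 bases upstream of the annotated start in RefSeq, mouse build GRCm38.p6, on the strand of the gene. Such a window was found for 8 of the 9 genes. Capitals mark the cAMP response element TGACGTCA, its half-site TGACG and the TATA motif TATAAA, each searched on both strands, and the full element holds a half-site on each strand. The Sst window is chr16:23890845-23891094 (minus strand), that of Cort is chr4:149126764-149127013 (minus strand), and that of Vip is chr10:5638968-5639217 (plus strand).
Sst: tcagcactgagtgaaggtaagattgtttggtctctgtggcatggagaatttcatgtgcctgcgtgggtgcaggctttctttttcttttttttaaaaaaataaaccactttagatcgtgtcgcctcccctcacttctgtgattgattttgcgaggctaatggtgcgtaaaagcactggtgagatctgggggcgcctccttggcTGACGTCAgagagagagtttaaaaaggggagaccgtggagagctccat
Cort: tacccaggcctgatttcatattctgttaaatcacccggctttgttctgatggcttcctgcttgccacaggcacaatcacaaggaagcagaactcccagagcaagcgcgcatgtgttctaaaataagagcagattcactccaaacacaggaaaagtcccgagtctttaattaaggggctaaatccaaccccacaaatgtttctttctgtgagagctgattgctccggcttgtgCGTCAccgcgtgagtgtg
Vip: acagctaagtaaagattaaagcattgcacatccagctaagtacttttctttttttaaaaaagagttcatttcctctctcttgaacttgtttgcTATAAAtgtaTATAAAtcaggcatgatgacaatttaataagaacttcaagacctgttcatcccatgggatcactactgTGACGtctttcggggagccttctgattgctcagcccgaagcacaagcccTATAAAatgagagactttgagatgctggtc

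The full cAMP response element lay in the Sst window, with its first base 48 bases before the start, and in 1.55% of all 32851 windows. Cort held a half-site 18 bases before its start and Vip held one 79 bases before its start. Half-sites were found in 17.8% of all windows and, with those of Cck and Tac1, in 5 of the 9 windows of neuropeptide genes, since Pdyn has 2 starts. Vip had the TATA motif 30 bases before its start and at 2 positions further upstream, and this motif was in 12.4% of all windows. These matches are descriptions of letters in a window and do not show binding.

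Neuropeptide Y (Npy) restrains excitatory transmission and is made by several interneuron types. It gave 772, 915, 619 and 878 units, with a mean of 796 ± 133 (SD, n = 4) and a span of 1.48-fold. Sample 3 was the lowest, and samples 2 and 4 differed by less than the trend SD. The SD was 1.27 times the trend (limma, adjusted p = 0.994). Without sample 3 the log2 range was 0.24, against 0.56 with it. With median scaling of the arrays the highest sample was sample 4 in place of sample 2.

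Cholecystokinin (Cck), the peptide of a class of basket cells that is also transcribed in principal cells, varied little. It gave 5159, 4912, 5169 and 4488 units, with a mean of 4932 ± 319 (SD, n = 4), and spanned 1.15-fold. Every sample lay within the trend SD of its neighbour in the order, and the SD was 0.693 times the trend (limma, adjusted p = 0.994). Sample 4 was lowest with quantile normalization and sample 2 with median scaling, and without sample 4 the log2 range was 0.081, against 0.20 with it.

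Vasoactive intestinal peptide (Vip) marks interneurons that mainly contact other interneurons. Its probe set gave 109.7, 54.6, 108 and 55.3 units, with a mean of 81.9 ± 31.1 (SD, n = 4). Samples 1 and 3 lay together at the high level and samples 2 and 4 together at the low level, with 2.01-fold between the extremes. The step between the low and the high samples was larger than the trend SD of 0.47 on the log2 scale, and the steps within each level were smaller. The mean was below the analysed range, and with no filter on signal the SD was 1.20 times the trend (limma, unadjusted p = 0.342, adjusted p = 1). In the deposited values and with median scaling sample 4 was the lowest in place of sample 2. The span lay just above 2-fold, and that of Pdyn, the next gene, just below it at 1.85-fold.

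Proenkephalin (Penk) is the precursor of the enkephalins, which act on delta and mu opioid receptors. The probe set with the highest signal gave 894, 562, 735 and 706 units, with a mean of 724 ± 136 (SD, n = 4), a span of 1.59-fold and an SD of 1.36 times the trend (limma, adjusted p = 0.994). Its name carries the suffix that Affymetrix gives to probe sets whose oligonucleotides can match related sequences. Sample 1 was highest and sample 2 lowest, and the log2 range of 0.67 dropped to 0.38 without sample 1 and to 0.34 without sample 2. A second probe set gave 107, 56.5, 106 and 136 units and was also lowest in sample 2, but its highest sample was sample 4. It spanned 2.41-fold and was not analysed for its low mean. The remaining probe set lay under the floor in all 4 samples. The low value of sample 2 was thus shared by both readable probe sets of Penk, while the highest sample was not.

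Prodynorphin (Pdyn) gives rise to the dynorphins, which act on the kappa opioid receptor. Its leading probe set gave 162, 131, 108 and 200.2 units, with a mean of 150.4 ± 40.0 (SD, n = 4). Sample 4 was highest and sample 3 lowest, no step between neighbours in the order exceeded the trend SD, and the SD was 1.14 times the trend (limma, adjusted p = 0.994). Without sample 4 the log2 range was 0.58, against 0.89 with it. The other probe set gave 56.6 units in sample 1 and was under the floor in samples 2, 3 and 4. The highest sample therefore differed between the probe sets of Pdyn.

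Tachykinin 1 (Tac1) encodes substance P and neurokinin A. Its probe set gave 69.55, 79.1, 59.25 and 56.0 units, with a mean of 66.0 ± 10.5 (SD, n = 4). Sample 2 was highest and sample 4 lowest, no step between neighbours exceeded the trend SD, and with no signal filter the SD was 0.442 times the trend (limma, adjusted p = 1). In the values as deposited the range was 0.78 on the log2 scale, against 0.50 after quantile normalization and 0.32 after it without sample 2.

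Tachykinin 2 (Tac2) encodes neurokinin B. It gave 117, 66.3, 148 and 161 units, with a mean of 123 ± 42.2 (SD, n = 4) and a span of 2.43-fold. Sample 2 alone was low, at 0.472 times the mean of the other samples, and the other 3 samples lay within the trend SD of their neighbours. The SD was 1.39 times the trend (limma, adjusted p = 0.994), and without sample 2 the log2 range dropped to 0.48, against 1.28 with it.

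**Figure D2:**
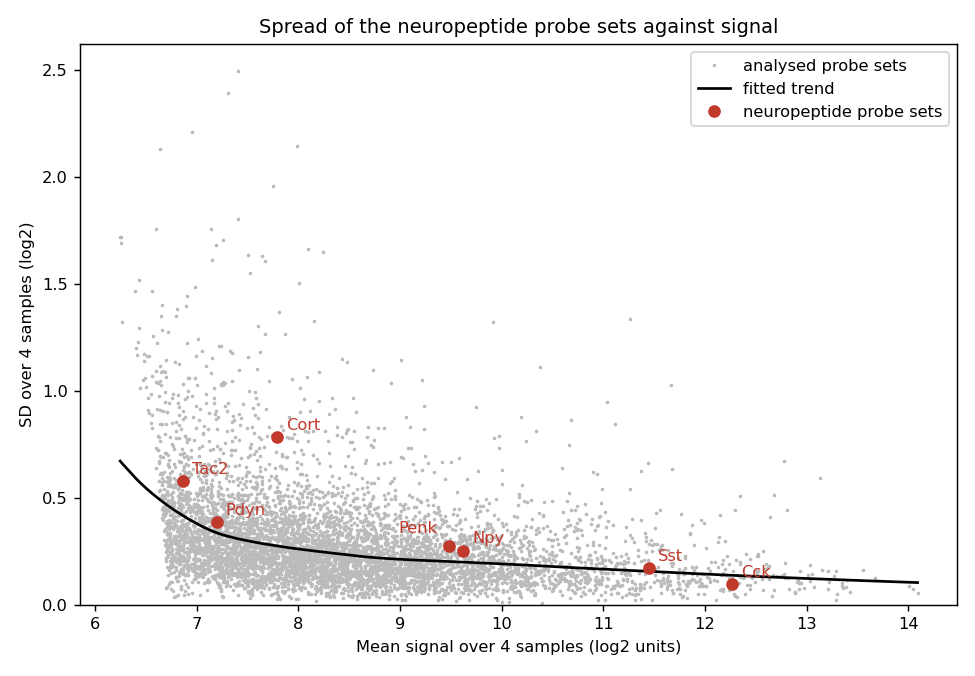
SD over the 4 samples (log2) against mean signal (log2 units) of the 6210 analysed probe sets in grey, with the fitted trend as a black line and the 7 analysed neuropeptide probe sets in red. Cck lies below the trend, the other red points lie above it, and Cort is farthest from it at 2.85 times the trend.

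The genes did not share one order of samples. Sample 2 was the highest for 4 of the 9 genes (Sst, Npy, Tac1 and Cort) and the lowest for 3 (Penk, Tac2 and Vip). Sample 3 was the lowest for 3 genes (Npy, Pdyn and Cort), and sample 4 was the highest for Pdyn and Tac2. For comparison, sample 4 was the highest in 31.1% of all analysed probe sets and sample 2 in 21.6%, while sample 2 was the lowest in 22.7% and sample 3 in 23.4%. With median scaling 8 of the 9 genes kept their highest sample and 7 their lowest, and with the values as deposited 9 and 8 did. Across the 7 analysed genes, the median log2 deviation from the mean of the other samples was 0.00074, -0.0048, -0.083 and 0.21 in samples 1 to 4, beside 0.0112, 0.0076, 0.0105 and 0.0179 over all analysed probe sets. With all 9 genes the median in sample 4 was -0.022. The median span of the 7 analysed genes was 1.59-fold, beside 1.45-fold over all analysed probe sets.

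**Figure D3:**
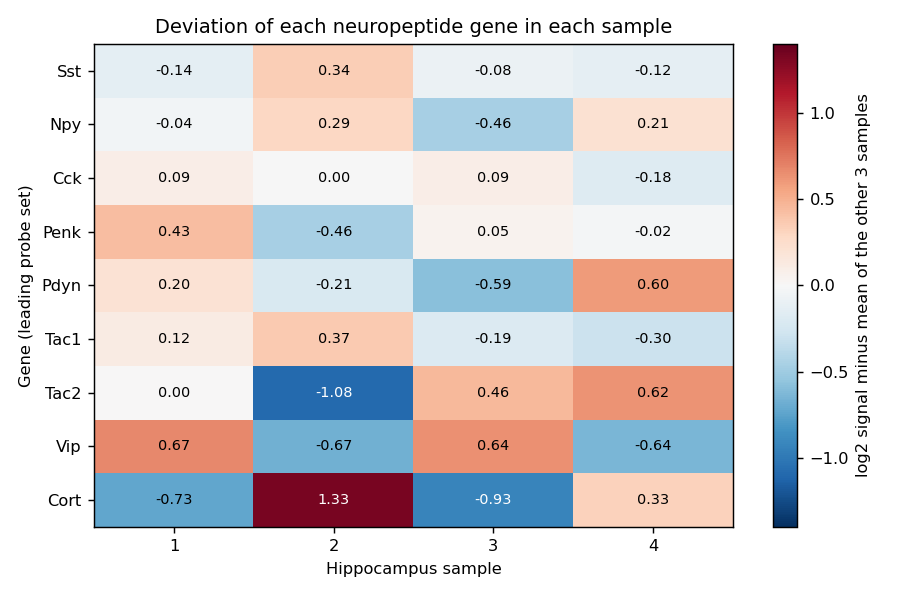
Log2 signal of each neuropeptide gene (leading probe set, rows) in each sample (columns) minus the mean of the other 3 samples, with the value printed in each cell. Red is higher and blue lower. Sample 2 holds both the highest cell (Cort, 1.33) and the lowest (Tac2, -1.08).

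Sample 4 differed most from the others over the whole array. Pearson's r across analysed probe sets was between 0.907 and 0.949 for the 6 pairs of samples, with the minimum between samples 1 and 4. Control transcripts are read near both ends, and signal at the 3' end over that at the 5' end is larger where RNA or cDNA is less complete. This quotient peaked in sample 4 for 4 of 5 controls, with Actb at 1.84, 1.64, 1.51 and 2.03, and for the fifth the 5' value of sample 4 was below the floor. The part of this difference in the values of sample 4 was not tested.

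Receptors of these peptides were measured for 21 of 22 listed genes, and 6 had a mean high enough for analysis. Of the 6, 1 spanned at least 2-fold (beside 15.2% of analysed probe sets), 0 passed the adjusted variance test and 0 had an unadjusted p under 0.05 (limma). The receptors Sstr2 and Sstr4 bind both somatostatin and cortistatin. Sstr4 gave 426, 450.5, 437 and 541 units (464 ± 52.9, SD, n = 4), with its top value in sample 4. Sstr2 gave 229, 122, 162 and 188 units (175 ± 45.1, SD, n = 4) and was lowest in sample 2. Of its 2 other analysed probe sets, 1 was also lowest in sample 2 (159, 120.0, 153.5 and 145 units) and 1 in sample 4 (148, 133, 96.2 and 87.6 units).

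Npy2r, a receptor of neuropeptide Y found on presynaptic terminals, gave 563, 822, 517 and 772 units (669 ± 151, SD, n = 4). The name of this probe set carries a suffix for oligonucleotides that can match related sequences. A second analysed probe set of Npy2r gave 165, 202, 105 and 100.3 units, with sample 4 lowest, so the sample order differed between them. The adjusted p of the spread was 0.994 for either (limma). Cckbr, the main cholecystokinin receptor of the brain, gave 453, 530.5, 481 and 465 units (482 ± 34.2, SD, n = 4) and a span of 1.17-fold.

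Among the opioid receptor genes, Oprl1, the receptor of the related peptide nociceptin, was the one analysed, with 149.6, 145, 177 and 165 units (159 ± 14.7, SD, n = 4). Oprm1, the mu receptor, was under the floor in all 4 samples, Oprd1, the delta receptor, was above it in sample 3 alone, and Oprk1, the kappa receptor, lay between 20.6 and 53.2 units. A probe set near the floor does not show that the mRNA was absent.

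The PACAP receptor Adcyap1r1, which also binds vasoactive intestinal peptide with lower affinity, gave 129, 143, 149 and 33.4 units (114 ± 54.2, SD, n = 4). Sample 4 was far below the other 3 samples, close to the floor, and the span was 4.46-fold (limma, unadjusted p = 0.0733, adjusted p = 0.911). Its second probe set was not analysed and was under the floor in samples 3 and 4. Vipr2, named after its values were seen and too low for analysis, gave 70.1, 16.5, 111 and 30.4 units. Vipr1, the other receptor gene of Vip on the list, likewise too low for analysis, gave 68.7, 97.0, 37.45 and 41.7 units, with sample 2 highest and sample 3 lowest. The 2 genes thus had different sample orders. The tachykinin receptors Tacr1 and Tacr2 were too low for analysis, with Tacr1 above the floor in sample 4 alone.

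**Figure D4:**
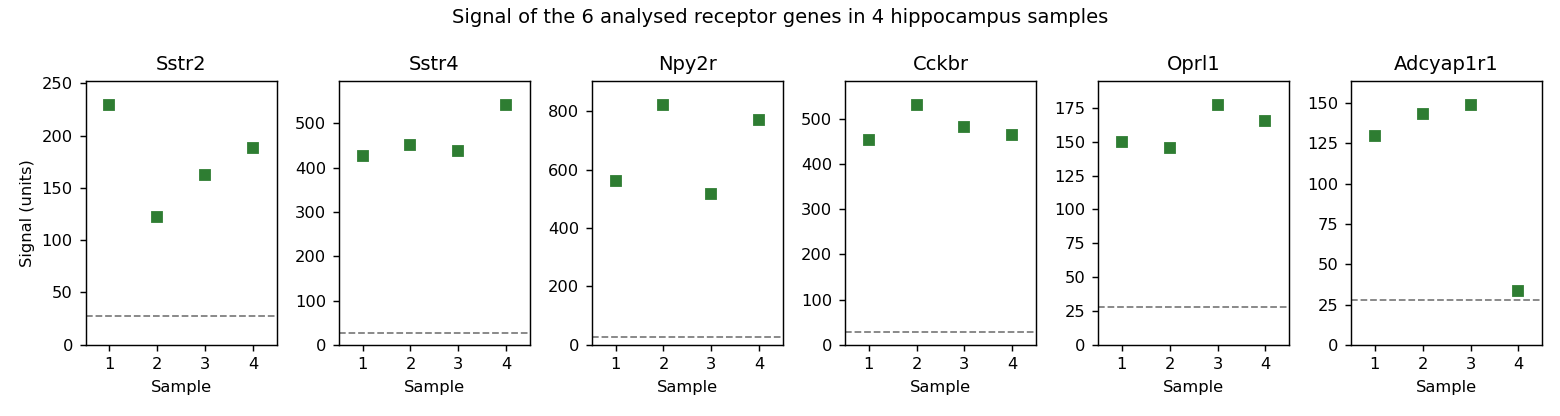
Signal (normalized units, linear axis from 0) of the 6 analysed receptor genes in samples 1 to 4. Each square is 1 array and the dashed line is the floor of 27.7 units. The leading probe set of Npy2r is higher in samples 2 and 4, Cckbr is nearly level, and Adcyap1r1 drops to 33.4 units in sample 4.

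Other neuropeptide precursors were measured for 18 of 34 listed genes, and 5 were analysed, of which 0 spanned 2-fold (beside 15.2% of analysed probe sets). In sample 4 all 5 exceeded the average of the remaining samples, as 52.2% of all analysed probe sets did, by a median of 0.31 on the log2 scale, beside 0.0179. Among precursors too low for analysis, Adcyap1 and Pomc were lowest in sample 4, and Trh and Ghrl were highest there. For Adcyap1, Pomc and Trh the step from sample 4 to the next sample was smaller than the trend SD, and for Ghrl larger. The widest step of Adcyap1 and Pomc lay below sample 1, their highest, at 126 and 66.25 units. Of the 5 analysed precursors, the widest were Oxt and Nppa. Oxt, the oxytocin precursor, gave 218, 174, 219 and 337 units (237 ± 69.8, SD, n = 4). Nppa, a natriuretic peptide precursor, gave 213, 187, 167 and 279.5 units (212 ± 48.9, SD, n = 4). Avp, the vasopressin precursor, which was named after its values were seen, was under the floor in samples 1 and 2, near it in sample 4 and at 86.2 units in sample 3.

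Of 13 listed genes of peptide processing and dense-core granules, 10 were analysed and 2 spanned at least 2-fold (beside 15.2% of analysed probe sets), Pam and Scg5. Both had an unadjusted p under 0.05, beside 5.62%, and neither past the adjusted test (limma, adjusted p = 0.405 and 0.651). Scg5 encodes 7B2, the chaperone of the convertase PC2 that cuts many of these precursors, and gave 1080.1, 536, 1225 and 483 units. Pam, which amidates Npy, Cck, Vip and tachykinin peptides, gave 371.5, 110, 345 and 22.2 units. It was also higher in samples 1 and 3 than in samples 2 and 4. Unlike for Scg5, sample 4 was under the floor, and the step from it to sample 2 was the widest, at 1.99 on the log2 scale. Cpe, the carboxypeptidase that trims the cut peptides, differed little, at 7283 ± 382 units (SD, n = 4).

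Markers of the cells that make these peptides gave signal for some genes and little or none for others. Of 16 interneuron markers, 14 were measured and 8 analysed, and the summed signal of the 14 was between 5646 and 6059 units over the 4 samples. Among those too low for analysis, Gad2 gave 41.5, 34.5, 56.6 and 63.1 units, and Erbb4 was under the floor in all 4 samples. Gad1, which makes GABA, gave 2129, 1954, 2387 and 1796 units (2067 ± 254, SD, n = 4), highest in sample 3 and lowest in sample 4. Of the 8 analysed interneuron markers, sample 2 exceeded the mean of the other samples for 3, and sample 4 did so for 4. These shares were 51.2% and 52.2% over all analysed probe sets. Slc32a1, the vesicular GABA transporter, was high in samples 2 and 4 (376, 1074, 272 and 1139 units in samples 1 to 4; limma, unadjusted p = 0.0017, adjusted p = 0.405), and Nos1, found in some Npy interneurons, was lowest in sample 3 (188, 92.5, 70.5 and 153 units). Of 7 granule cell markers, 5 were measured, with a summed signal between 1141 and 1241 units. Dsp gave 316, 375, 199 and 351 units, whereas Prox1, the defining factor of granule cells, gave 64.1, 27.4, 109 and 16.7 units and was under the floor in samples 2 and 4. Of 7 analysed principal cell markers 2 spanned 2-fold (beside 15.2%), 3 had an unadjusted p under 0.05 (beside 5.62%) and 0 passed the adjusted test. Camk2a, a kinase subunit of excitatory neurons, gave 357, 629.7, 321 and 29.4 units, with sample 4 far below the others (limma, unadjusted p = 0.000357, adjusted p = 0.356). Nrgn, a calmodulin-binding protein of the same neurons, gave 1978, 2868, 1422 and 1965 units, highest in sample 2 (limma, unadjusted p = 0.0391, adjusted p = 0.832). Gria1 gave 2676, 2256, 3866 and 2095 units, highest in sample 3 (limma, unadjusted p = 0.0378, adjusted p = 0.832). Camk2b gave 4760, 4807, 3990 and 4955 units (4628 ± 433, SD, n = 4), highest in sample 4. Sample 4 exceeded the mean of the other samples for 3 of the 7 analysed principal cell markers, beside 52.2% of all analysed probe sets.

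Neighbouring brain regions also make several of these peptides. Striatal markers were measured for 3 of 9 genes, with a summed signal between 338 and 361 units. Drd2, which striatal enkephalin neurons express, varied 1.14-fold around a mean of 104 units, and the mean of Foxp1 was 221 units. Rgs9 gave 39.7, 15.7, 29.3 and 6.2 units and was under the floor in samples 2 and 4. Of 10 markers of the medial habenula and thalamus 4 were measured, with a summed signal between 1207 and 1310 units. Tcf7l2 was lowest in sample 3 at 172 units, whereas Lef1 (510 units) and Rora (151 units) were highest there. Prkcd was highest in sample 4. Of 11 hypothalamic markers 8 were measured, with sums of 647, 675, 792 and 831 units in samples 1 to 4. Of 6 choroid plexus markers 3 were measured, with sums of 2955, 1584, 1104 and 2196 units. Most of this was Ttr, with 2630, 1236, 954 and 1820 units. Kl was also lowest in sample 3 but was highest in sample 4 (152, 202, 138 and 247 units). Folr1 was under the floor in sample 3. The part of these tissues in the neuropeptide values was not tested.

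For each neuropeptide gene that spanned at least 1.5-fold, the named genes with the most similar pattern were found among 4824 analysed genes by the root mean square difference of log2 values centred on their own mean over the 4 samples. With 4 samples and so many genes close matches are easily found, and a match describes likeness of these values alone. Penk was closest to Wdr92 (1557, 969.6, 1255 and 1231 units, difference 0.012) and Bmp1 (0.016). Pdyn was closest to Psenen, a gamma-secretase subunit gene (249, 207, 172 and 324 units, difference 0.028), and Gstm2 (0.038), and Tac2 to Ak3 (114, 66.3, 137 and 156 units, difference 0.042) and Rhou (0.070). Vip was closest to Twist2 (226, 126, 231 and 126 units, difference 0.063) and Pih1d1 (0.086). Cort had no match as close, with 6430706D22Rik at 0.23 (95.6, 241, 115 and 154 units) and Gm15772 at 0.25.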

How the data were processed

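Intensities, as deposited, are linear values per probe set; the software that made them is not given in the sources used here. In the deposited intensities the mean of each array after trimming 2% at each end was 250.1 units, a scaling that precedes deposit. Here, 66 control probe sets were dropped, quantile normalization was run (limma 3.58.1, R 4.3.3), values under the 25th percentile were raised to it and log2 was taken, which understates the range of low signals. Symbols came from the platform annotation, updated by Entrez identifier to RefSeq (GRCm38.p6). A gene's leading probe set has its highest mean. The variance test had 3 residual and 5.06 prior degrees of freedom and was tried on simulated data first, with an outcome that is not given here. The trend SD of a probe set outside the analysed range comes from the fit without a signal filter.

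The members and lists were chosen with earlier results of these data known. Named were all members, receptors with the highest mean of a ligand family or a 2-fold range, the 2 widest genes of each other list, defining markers and closest patterns. Of these, Tdo2, Gal, Fos and Junb are not described in the report. Sstr2, Cpe, Oprm1, Oprd1, Oprk1, Tacr1, Tacr2, Vipr1, Vipr2, Avp, Adcyap1, Pomc, Trh, Ghrl, Gria1, Rgs9, Rora and Prkcd were added after values were seen. So were Kl, Gad2 and Erbb4. Alternatives covered scaling, floor, filter, trend, probe set choice and leaving out each sample. Only 4 arrays bound the precision.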

Additional observations from a re-analysis of the deposited data

Results flagged for a closer look

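In 4 of 40 probe sets examined (the 12 of the neuropeptide genes and 28 of named genes), a single sample lay apart from the others by more than Dixon's 95% critical value. Chance exceeds this value in about 1 of 20 groups of normally distributed values. Many of the named genes were picked for a wide range, and the share over all probe sets was not counted, so that rate is only nominal. Among the neuropeptide probe sets, only that of Sst was flagged. For Sst the gap of sample 2 to the next sample was 0.884 of the whole range, although that range was 1.28-fold. For the receptor Adcyap1r1 the gap of sample 4 was 0.906 of the range. For Drd2 the gap of sample 4 was 0.863 within a range of 1.14-fold, and for the choroid plexus gene Folr1 that of sample 3 was 0.835, with its value there under the floor. A further probe set, of Pdyn, had its gap set by 3 values under the floor and was not counted.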

How the results depend on the processing

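Across the alternatives, 0 probe sets passed the adjusted variance test, neuropeptide probe sets included. This does not show a small spread, since with 4 arrays the test can miss even wide spreads. At an unadjusted p under 0.05 there were 314 to 386, and the smallest adjusted p was between 0.115 and 1. The unadjusted p of Cort was between 0.0095 and 0.166, the highest without sample 2, and its adjusted p between 0.647 and 1. The count of neuropeptide probe sets that spanned 2-fold was 2 with either other scaling, with a floor at the 10th percentile and with a pseudocount of 16 units. It was 5 of 12 with no signal filter (beside 22.6% of all probe sets), because probe sets of low mean were added, and 0 to 2 when a sample was left out. The median log2 range over the 9 genes was 0.67, and 0.48 to 0.78 under the alternatives. The medians of the deviations moved by less than the spread between samples under every alternative, although that of sample 4 ranged from -0.022 to 0.31. Of 90 ranges of single genes under an alternative, 83 moved by less than 1 SD and 7 by more. Of these 7, 6 came from leaving out a sample. The lower floor, the dropped filter and the mean of a gene's analysed probe sets could not move these ranges. The leading probe sets had no value under the floor, and no gene had more than 1 analysed probe set. The 83 therefore overstates how stable the ranges were. No paired analysis was possible because there is a single group. Signals near the floor, as of Tac1 and Vip, cannot be told from background without detection calls, which were not used here.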
